A study of Mus musculus with 9 samples.

Results

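The stress keratins Krt6a, Krt6b, Krt16 and Krt17 are 4 genes of the 52550 in a table of RNA sequencing counts from the ear dermis of mice. They were chosen by name, as the keratins known to be switched on in wounded or psoriatic epidermis. Each symbol stood in exactly 1 row of the table, and all 4 members had enough counts to be tested, as did 22430 genes in all. The 9 libraries came from C57BL/6 mice, 8 weeks old, whose genotype is labelled "wide type". The VAS+H2O group received vaseline on the ear for 5 days and water by gavage for 10 days. The IMQ+H2O group received imiquimod (IMQ) cream, which activates Toll-like receptors and causes a psoriasis-like dermatitis, for 5 days and the same gavage of water. The IMQ+XYF group received the same cream and, for 10 days, gavage of 200 μl of Xiao-Yin-Fang (XYF) at 23.3 mg/g, a decoction of Chinese herbs. Each group had 3 libraries. RNA was extracted from the ear sheets of 2 mice, and whether each library pooled a pair of mice is not clear from the methods, so the p-values measure the spread between these libraries, which may in part be technical.

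Keratins are the intermediate filament proteins of epithelial cells and assemble as pairs of a type II and a type I chain. Resting basal keratinocytes carry the pair Krt5 and Krt14, and cells that move up and differentiate replace it with Krt1 and Krt10. After wounding, and in the thickened epidermis of psoriasis, keratinocytes add the type II chains Krt6a and Krt6b and the type I chains Krt16 and Krt17, while Krt6a and Krt17 are also made in the hair follicle of unwounded skin.

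On GRCm38, with gene models from GENCODE release M21, the members sat on the minus strand in a type II and a type I cluster. Krt6a (ENSMUSG00000058354) spans chr15:101689910-101694307 and Krt6b (ENSMUSG00000023041) spans chr15:101676023-101680287, with 9622 bases between them. Krt16 (ENSMUSG00000053797) spans chr11:100246091-100248902 and Krt17 (ENSMUSG00000035557) spans chr11:100256217-100261029, with 7314 bases between them. The basal keratin of the same type lies close to each pair, Krt5 12762 bases from Krt6a and Krt14 38542 bases from Krt16. An antisense gene, Gm49428, overlaps Krt6a on the plus strand, and a predicted microRNA gene overlaps each of Krt6a and Krt6b.

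The coding sequences of Krt6a and Krt6b were 97.6% identical, with 37 mismatches and an identical run of 280 bases. Krt16 and Krt17 were less alike at 69.6%, and Krt16 stood closer to Krt14 at 82.5%. Among stretches of 60 aligned coding bases within a single exon, the one with the most mismatches is given for both genes. Untranslated sequence and exon junctions were not searched. Both copies lie in exon 4 and start at base 817 of the coding sequence, are read from the GRCm38 transcripts on the minus strand, and have the 10 mismatched bases in capitals.
Krt6a, chr15:101692484-101692543: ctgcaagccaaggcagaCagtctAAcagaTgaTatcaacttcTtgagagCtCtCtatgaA
Krt6b, chr15:101678303-101678362: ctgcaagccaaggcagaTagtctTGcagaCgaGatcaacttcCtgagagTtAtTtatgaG

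Of the windows of 100 bases in the transcripts of Krt6a, 42.9% also occurred in another gene, mostly in Krt6b (26.6%) and Gm49428 (12.2%). For Krt6b the share was 30.6%, and 30.1% of all its windows occurred in Krt6a. Krt16 shared 24.3%, and 21.1% of all its windows occurred in the processed copy Gm11597. Krt17 shared 0% at this length. Gm11597 had 134 counts in all, in 2 libraries. How reads with several alignments and the strand were handled is not given in the sources used here, so the split of counts between Krt6a and Krt6b is uncertain, and so is the part of Krt6a counts that came from its antisense partner.

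Total counts per library ran from 28756305 to 79836881. Although the tissue is labelled dermis, all 30 genes of a baseline epidermis list (basal, spinous and cornified cell genes such as Krt5 and Krt14) had counts in every library. Their summed level was 7958 to 13967 CPM (counts scaled to library size with TMM factors) in VAS+H2O, 4673 to 6670 in IMQ+H2O and 7862 to 30407 in IMQ+XYF, with the highest value in IMQ+XYF replicate 1. In bulk RNA, fewer cells of a type and less RNA per cell cannot be told apart. For that reason each member is given below both as a level and relative to the basal keratin of its own type.

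Krt6a, a type II chain of activated keratinocytes, had 59.4, 81.5 and 100.2 CPM in the 3 VAS+H2O libraries. It had 144, 249 and 182 CPM in IMQ+H2O and 398, 175 and 1039 CPM in IMQ+XYF, replicates 1 to 3 in each case. All 3 IMQ+H2O libraries lay above all 3 VAS+H2O libraries, and in IMQ+XYF replicate 3 stood far above the rest while replicate 2 lay inside the range of IMQ+H2O.

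Krt6b, the near copy of Krt6a, was the lowest member in each group per length of transcript. Its VAS+H2O libraries had 8.10, 8.42 and 2.87 CPM. The IMQ+H2O libraries had 27.7, 50.6 and 45.6 CPM and the IMQ+XYF libraries 79.6, 46.1 and 504 CPM. The groups treated with IMQ did not overlap VAS+H2O, and replicate 3 of IMQ+XYF stood far above every other library.

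Krt16, the type I partner of the Krt6 chains, had 17.4, 31.3 and 7.15 CPM in VAS+H2O. Its IMQ+H2O libraries had 84.7, 129 and 107 CPM. Its IMQ+XYF libraries had 464, 132 and 742 CPM. The 3 groups were ordered without overlap for this member, although IMQ+XYF replicate 2 lay just above the highest IMQ+H2O library.

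Krt17, a type I chain made both in the hair follicle and in stressed epidermis, had 141, 222 and 269 CPM in VAS+H2O. It had 225, 371 and 211 CPM in IMQ+H2O and 515, 227 and 614 CPM in IMQ+XYF. The values of VAS+H2O and IMQ+H2O were interleaved, and IMQ+XYF replicates 1 and 3 were the highest of the 9 libraries.

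**Figure D1:**
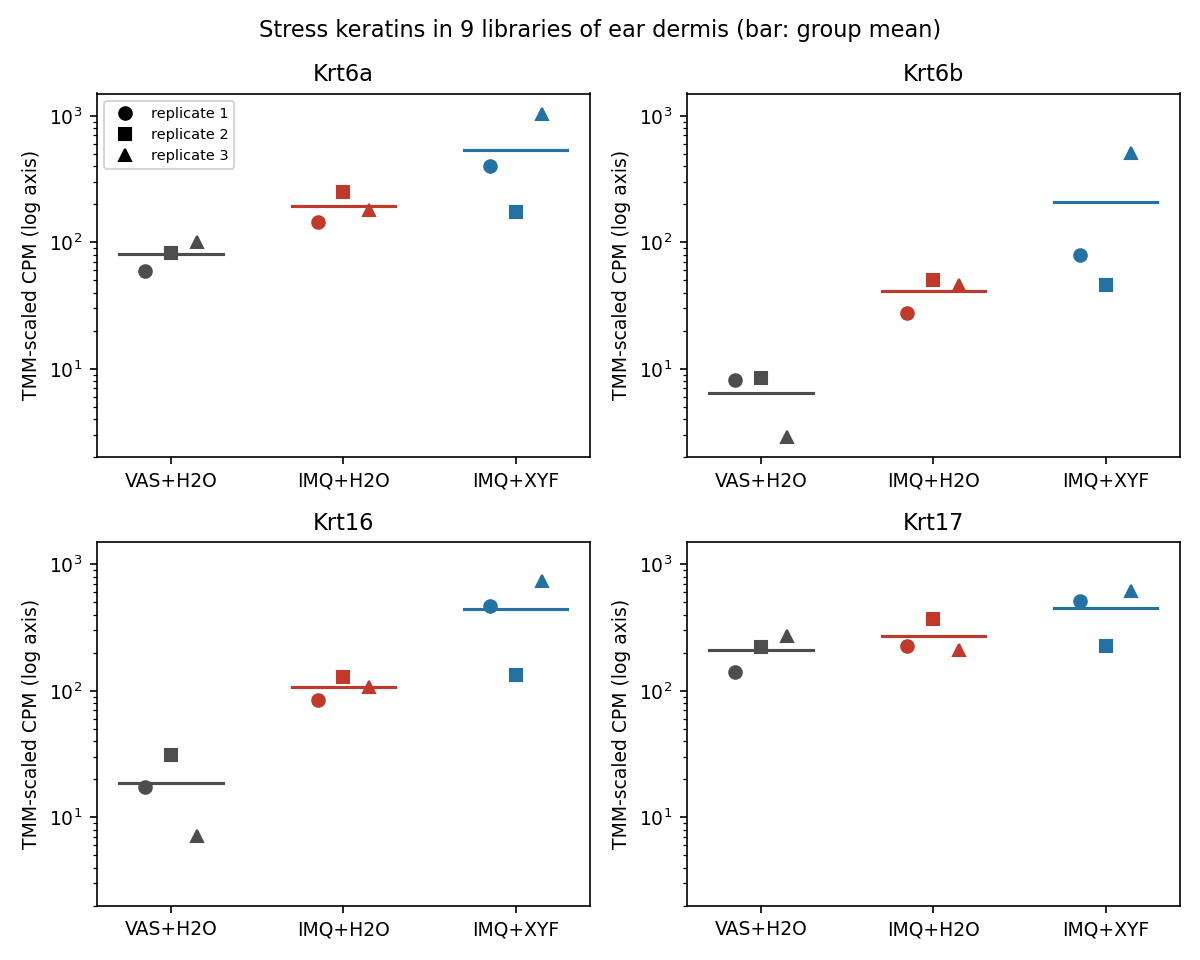
TMM-scaled CPM (log axis) of each stress keratin in the 9 libraries, by group; symbols mark the replicate and bars the group mean. Krt6a, Krt6b and Krt16 were higher in every IMQ+H2O library than in any VAS+H2O library, Krt17 was not, and IMQ+XYF replicate 3 was the highest library for all 4 genes.

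The spread among libraries was widest in IMQ+XYF. In IMQ+H2O the highest library exceeded the lowest 1.52-fold for Krt16 and up to 1.83-fold for Krt6b. In IMQ+XYF the same ratio was 2.71 for Krt17, 5.62 for Krt16, 5.94 for Krt6a and 10.9 for Krt6b. In VAS+H2O it was 1.69 for Krt6a and 1.91 for Krt17 but 2.94 for Krt6b and 4.37 for Krt16, and replicate 3 was the library with the highest Krt6a and Krt17 and the lowest Krt6b and Krt16. This library also had the highest summed level of hair follicle genes, 928 CPM against 469 and 604 CPM in replicates 1 and 2, and the part of this in the member values was not tested.

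Per length of transcript (RPKM, the CPM divided by the length of the merged exons in kilobases), the order of the members was the same in both groups given water. In VAS+H2O, Krt17 was at 136 ± 41.9 RPKM (SD, n = 3), followed by Krt6a at 33.2 ± 8.46, Krt16 at 11.9 ± 7.73 and Krt6b at 2.89 ± 1.40. In IMQ+H2O they were at 174 ± 57.2, 79.3 ± 22.0, 68.2 ± 14.1 and 18.5 ± 5.40 RPKM, where Krt6a and Krt16 differed by less than their spread. In IMQ+XYF, Krt17 was at 291 ± 130, Krt16 at 285 ± 195, Krt6a at 222 ± 186 and Krt6b at 93.9 ± 114 RPKM. Neighbours in this order differed by less than their spread, whereas Krt6b was below Krt17 by more than either SD and in each of the 3 libraries.

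The first comparison, IMQ+H2O against VAS+H2O, asks how the psoriasis-like dermatitis altered these genes. By edgeR (adjusted p of 0.05 or lower and an absolute log2 fold change of 1 or higher), 0 of the 4 stress keratins were called, where 0.994% of tested genes were called and 0.646% were called higher. Their estimates were nonetheless large for Krt6b and Krt16 and small for Krt17, around a median log2 fold change of -0.023 over all genes tested. Krt6b was at 41.3 ± 12.1 CPM (SD, n = 3) against 6.46 ± 3.12, a log2 fold change of 2.69 ± 0.87 (SE) with an edgeR adjusted p of 0.138. Krt16 was at 107 ± 22.0 CPM against 18.6 ± 12.1, a log2 fold change of 2.53 ± 0.66 with an edgeR adjusted p of 0.0920. Only 0.856% and 1.03% of tested genes had a log2 fold change at or above these values.

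For Krt6a the means were 192 ± 53.2 and 80.4 ± 20.5 CPM, a log2 fold change of 1.25 ± 0.55 with an edgeR adjusted p of 0.237. For Krt17 they were 269 ± 88.8 and 211 ± 65.0 CPM, a log2 fold change of 0.35 ± 0.39 with an edgeR adjusted p of 0.638. A value of this size or higher was found for 21.7% of tested genes. Without overlap between the groups, 3 of the 4 members were higher in IMQ+H2O, where 15.1% of tested genes were. The same 3 had an unadjusted edgeR p under 0.05 with a higher level, where 10.1% of tested genes did.

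Whether these members were called depended on the fit. With DESeq2, the tool of the study, Krt6b (log2 fold change 2.69, adjusted p 0.0439) and Krt16 (2.54, adjusted p 0.000863) were called, where 2.14% of genes with an adjusted p were called higher. With only the 6 libraries of these groups in the edgeR fit, Krt6a (1.28, adjusted p 0.0410), Krt6b (2.71, adjusted p 0.0286) and Krt16 (2.55, adjusted p 0.0425) were called. That fit called 268 of 20854 tested genes higher, against 145 of 22430 with all 9 libraries. Krt16 was also called by edgeR without IMQ+XYF replicate 2 (adjusted p 0.0343) and Krt6b without IMQ+XYF replicate 3 (adjusted p 0.0439), which are libraries outside the comparison that take part in the estimate of the spread. Those fits called 264 of 22893 and 116 of 22930 tested genes higher.

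The basal keratins were not called and their estimates lay below 0. Krt5, which pairs with Krt14 in basal cells, had a log2 fold change of -0.77 ± 0.49 (edgeR adjusted p 0.395), and Krt14 one of -0.43 ± 0.38 (edgeR adjusted p 0.548). As a percent of Krt5 per length, Krt6a was 7.27, 5.37 and 9.33 in VAS+H2O and 26.2, 26.2 and 36.4 in IMQ+H2O. Krt6b was 1.07, 0.601 and 0.289 percent of Krt5 in VAS+H2O and 5.42, 5.75 and 9.91 percent in IMQ+H2O. The IMQ+H2O values exceeded every VAS+H2O value for both chains.

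Krt16 was 2.26, 2.39 and 0.849 percent of Krt14 per length in VAS+H2O and 13.1, 15.1 and 15.8 percent in IMQ+H2O. Relative to the partner, the log2 difference between the groups was 2.03 for Krt6a, 3.57 for Krt6b and 3.14 for Krt16, or 4.09-fold, 11.8-fold and 8.82-fold. Each had an exact two-sided permutation p of 0.1, the smallest that 3 against 3 libraries can give, and 0.2 after adjustment over the 12 such tests, so this design could not pass 0.05. Krt17, at 18.5, 17.1 and 32.2 percent of Krt14 in VAS+H2O and 35.3, 44.1 and 31.6 percent in IMQ+H2O, overlapped between the groups, with a log2 difference of 0.76 (exact permutation p 0.2).

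**Figure D2:**
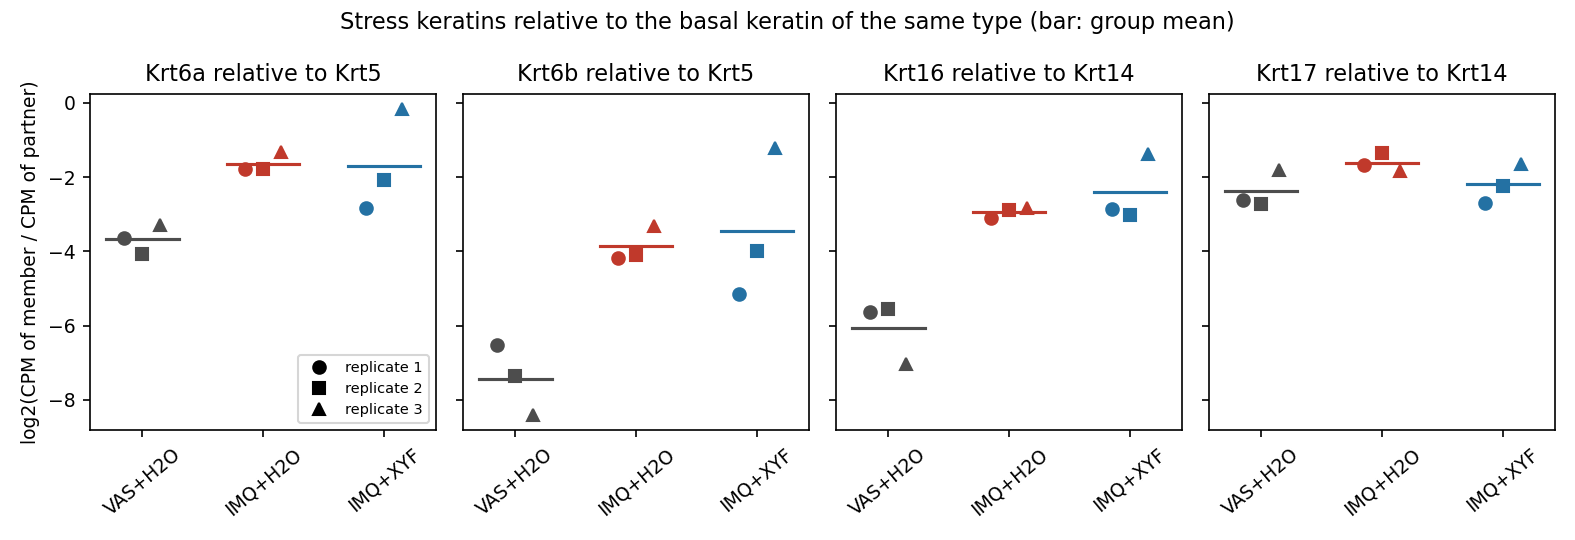
Log2 ratio of each stress keratin to the basal keratin of the same type within each library (Krt5 for Krt6a and Krt6b, Krt14 for Krt16 and Krt17), by group; symbols mark the replicate and bars the group mean. The IMQ+H2O and IMQ+XYF libraries lie above all VAS+H2O libraries for Krt6a, Krt6b and Krt16 and overlap them for Krt17, and the IMQ+H2O and IMQ+XYF libraries overlap for every member.

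The second comparison, IMQ+XYF against IMQ+H2O, asks what the decoction altered in IMQ-treated skin. By edgeR, 0 of the 4 members were called in either direction, as was nearly every gene (0.00892% called, 0.00446% higher), and all 4 estimates were above the all-gene median of 0.0054. Krt6a was at 537 ± 449 CPM against 192 ± 53.2, a log2 fold change of 1.49 ± 0.55 with an edgeR adjusted p of 0.384. Krt6b was at 210 ± 255 CPM against 41.3 ± 12.1, a log2 fold change of 2.34 ± 0.84 with an edgeR adjusted p of 0.379. For both genes the SD in IMQ+XYF was larger than the difference of the means.

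Krt16 was at 446 ± 305 CPM against 107 ± 22.0, a log2 fold change of 2.06 ± 0.65 with an edgeR adjusted p of 0.364. It was the single member of 4 whose groups did not overlap, where 9.22% of tested genes were higher without overlap, and the single one called by DESeq2 (log2 fold change 2.07, adjusted p 0.0307), where 0.808% of genes with an adjusted p were called higher. Krt17 was at 452 ± 201 CPM against 269 ± 88.8, a log2 fold change of 0.75 ± 0.39 with an edgeR adjusted p of 0.478. An unadjusted edgeR p under 0.05 was found for 3 members, all but Krt17, where 6.35% of tested genes had one with a higher level.

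IMQ+XYF replicate 3 set much of the size of these values. Without it the log2 fold change was 0.58 for Krt6a, 0.61 for Krt6b, 1.49 for Krt16 and 0.47 for Krt17. Without IMQ+XYF replicate 2, the library closest to IMQ+H2O, it was 1.93 for Krt6a, 2.85 for Krt6b, 2.53 for Krt16 and 1.10 for Krt17. All 9 fits with 1 library left out kept a positive sign for all 4 members and called 0 of them.

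**Figure D3:**
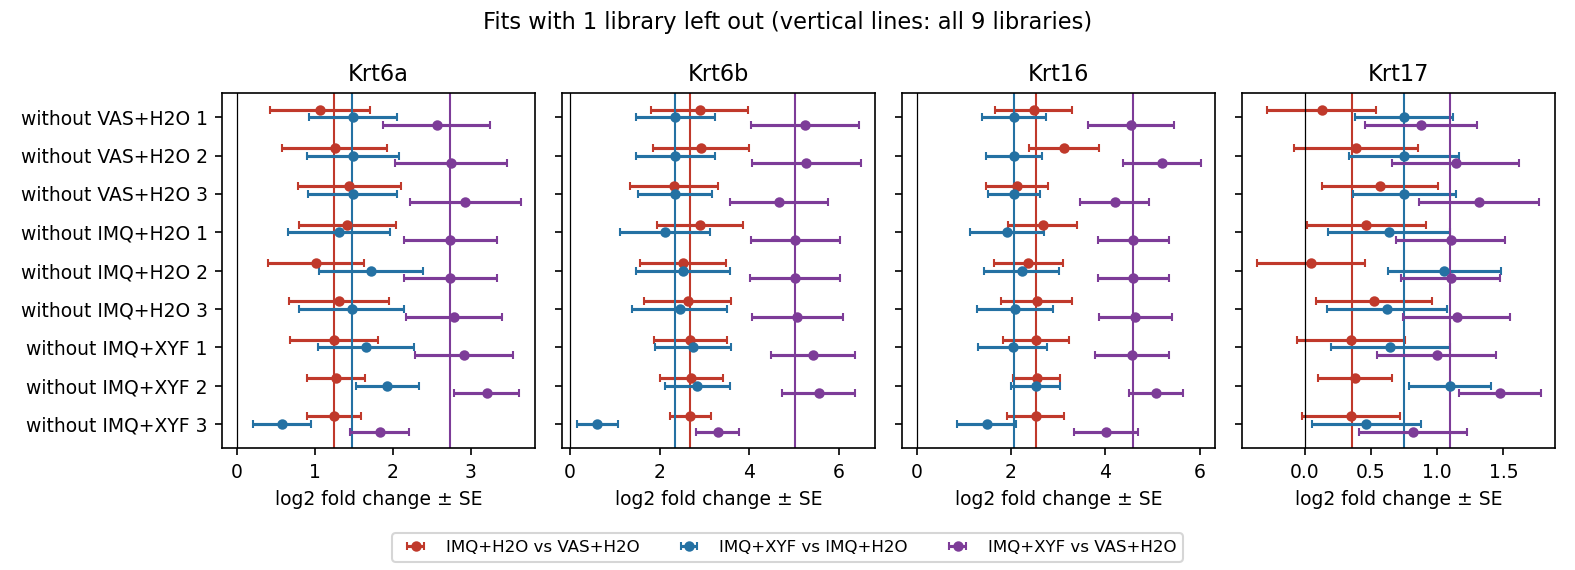
Log2 fold change (points, ± SE) of each stress keratin in fits without 1 library, for the 3 comparisons in colour; vertical lines give the value with all 9 libraries. Leaving out IMQ+XYF replicate 3 lowered both comparisons with IMQ+XYF most for Krt6a and Krt6b, to 0.58 and 0.61 against IMQ+H2O.

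The basal keratins were also higher in IMQ+XYF, with log2 fold changes of 1.38 ± 0.49 for Krt5 (edgeR adjusted p 0.379) and 1.38 ± 0.39 for Krt14 (edgeR adjusted p 0.364), neither of them called. The median over the baseline epidermis list was 1.38, with 29 of its 30 genes above 0. In that list edgeR called 0 genes, 21 had an unadjusted edgeR p under 0.05 with a higher level, and DESeq2 called 5 higher. Relative to the partner, the members differed little between the groups on average. The log2 difference was -0.052 for Krt6a (exact permutation p 1), 0.41 for Krt6b (exact permutation p 0.8), 0.53 for Krt16 (exact permutation p 0.5) and -0.56 for Krt17 (exact permutation p 0.3), and the groups overlapped for each. The part of epidermal content in the CPM values was not tested beyond this ratio and a fit with the epidermis score as a covariate, which gave 1.52 for Krt6a, 2.49 for Krt6b, 1.27 for Krt16 and 0.42 for Krt17.

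The ratio varied widely among the IMQ+XYF libraries. Krt6a was 12.7, 21.7 and 81.3 percent of Krt5 per length in replicates 1 to 3. Krt6b was 2.75, 6.19 and 42.7 percent of Krt5, and Krt16 was 15.5, 14.0 and 43.6 percent of Krt14. Replicate 1 thus combined high levels of the members with the highest Krt5 (2846 CPM) and Krt14 (3367 CPM) of all libraries, whereas replicate 3 combined the highest members with Krt5 at 1161 CPM and Krt14 at 1913 CPM. Krt17 was 17.3, 24.1 and 36.4 percent of Krt14, within the span of the other groups. Without replicate 3 the log2 difference from IMQ+H2O was -0.82 for Krt6a and -0.71 for Krt6b.

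The third comparison sets IMQ+XYF against VAS+H2O, and shares its IMQ+XYF and VAS+H2O libraries with the other comparisons. Krt6b and Krt16 rose, 2 of 4 members, where 1.2% of tested genes were called and 0.695% were called higher. Krt6b had a log2 fold change of 5.03 ± 0.96, or 32.8-fold, with an edgeR adjusted p of 0.0418. Krt16 had one of 4.59 ± 0.72, or 24.1-fold, with an edgeR adjusted p of 0.0286. Values as high were found for 0.299% and 0.348% of tested genes, around an all-gene median of -0.024.

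Krt6a, at a log2 fold change of 2.74 ± 0.58, missed the threshold with an edgeR adjusted p of 0.0526, and Krt17, at 1.10 ± 0.39, had one of 0.179. All but Krt17 were higher without overlap, 3 of 4 members, where 11.7% of tested genes were. All 4 had an unadjusted edgeR p under 0.05 with a higher level, where 9.58% of tested genes did. DESeq2 called all 4 members, Krt17 at 1.13 (adjusted p 0.0496), where 1.79% of genes with an adjusted p were called higher. Relative to the partner, the log2 difference was 1.98 for Krt6a, 3.98 for Krt6b and 3.67 for Krt16 without overlap (exact permutation p 0.1 each, the smallest possible), and 0.19 for Krt17 with overlap (exact permutation p 0.6).

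The edgeR calls of Krt6b and Krt16 were close to the threshold. With only the 6 libraries of these groups in the edgeR fit, neither was called (Krt6b adjusted p 0.119, Krt16 adjusted p 0.0809), and with the epidermis score as a covariate Krt6b was not (edgeR adjusted p 0.0594). Over all genes these fits called 33 and 157, against 270 without these changes. Krt6b was no longer called without any single library other than IMQ+XYF replicate 2, with adjusted p-values of up to 0.144, and its log2 fold change fell to 3.29 without IMQ+XYF replicate 3. Krt16 was no longer called without any VAS+H2O library, IMQ+H2O replicate 2, or IMQ+XYF replicates 1 or 3, with adjusted p-values of up to 0.0965. Without IMQ+XYF replicate 2, all 4 members were called. That fit called 412 of 22893 tested genes higher, against 156 of 22430 with all 9 libraries. Hair follicle genes moved with this comparison and with the first, at 469 to 928 summed CPM in VAS+H2O against 157 to 219 in IMQ+H2O and 210 to 332 in IMQ+XYF. Of the 28 tested, 13 fell in the first comparison, 0 were called in the second by edgeR (4 with an unadjusted p under 0.05, 3 called by DESeq2) and 15 fell in this one.

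The hair follicle score did not overlap between VAS+H2O and the other groups. With it as a covariate in edgeR, 0 genes were called in the whole table in any comparison. In the comparisons with VAS+H2O, hair follicle content and treatment thus cannot be told apart in these fits. The scores of IMQ+H2O (-1.87 to -0.67) and IMQ+XYF (-1.90 to -0.75) overlapped. Between these groups 2 genes were called without the covariate. With it the log2 fold changes were 1.56 for Krt6a, 2.09 for Krt6b, 2.04 for Krt16 and 0.86 for Krt17. The log2 fold changes between IMQ+XYF and VAS+H2O were then 3.97 for Krt6a, 2.16 for Krt6b (edgeR adjusted p 0.851), 3.95 for Krt16 (edgeR adjusted p 0.622) and 3.54 for Krt17. By IMQ they were 2.41 for Krt6a, 0.068 for Krt6b, 1.91 for Krt16 and 2.68 for Krt17.

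**Figure D4:**
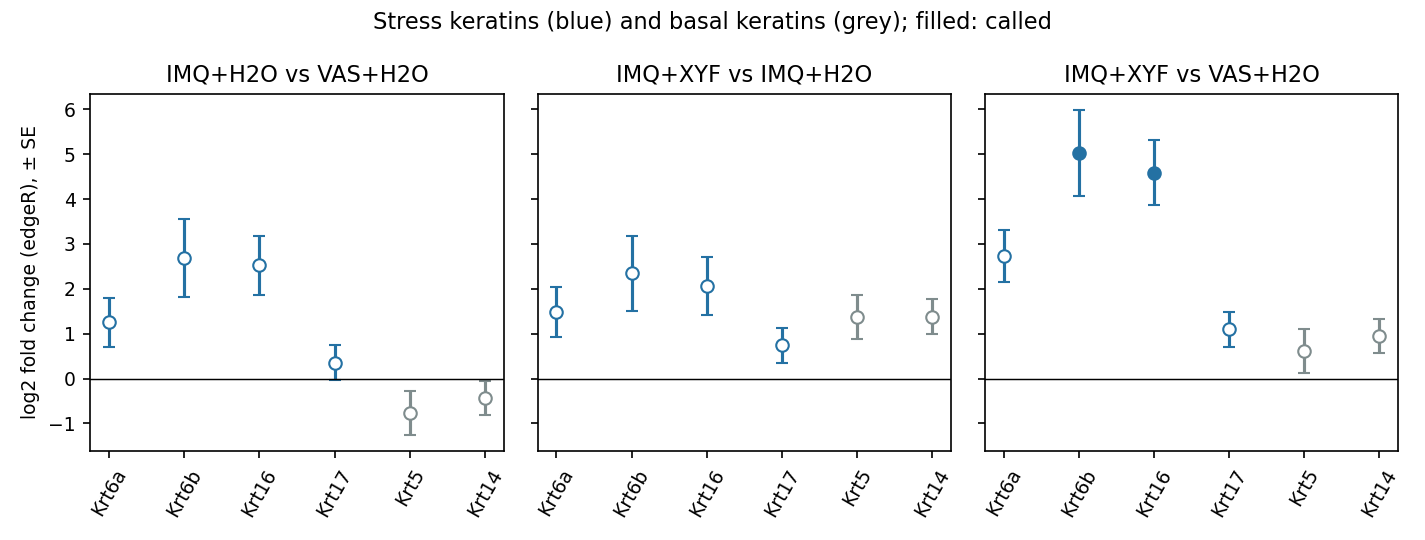
Log2 fold change (edgeR, ± SE) of the 4 stress keratins (blue) and the basal keratins Krt5 and Krt14 (grey) in the 3 comparisons; filled points passed the test. The called points are Krt6b and Krt16 in IMQ+XYF against VAS+H2O, and Krt17 has the smallest value of the 4 stress keratins in each comparison.

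The make-up of the stress keratins differed between the groups. Per length, Krt17 was 69.8, 71.4 and 78.6% of the summed level of the 4 members in VAS+H2O, 53.5, 53.5 and 45.4% in IMQ+H2O and 40.1, 45.2 and 26.0% in IMQ+XYF. Krt16 was 8.54, 9.96 and 2.07% in VAS+H2O, 19.9, 18.4 and 22.8% in IMQ+H2O and 35.8, 26.1 and 31.1% in IMQ+XYF. The groups did not overlap for either share, and no test was run on them. The share of Krt6a varied less, at 16.8 to 18.9% in VAS+H2O, 22.0 to 25.1% in IMQ+H2O and 19.8 to 28.2% in IMQ+XYF.

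Within the pairs of neighbours, the ratio of Krt17 to Krt16 per length was 8.17, 7.16 and 38.0 in VAS+H2O, 2.68, 2.91 and 1.99 in IMQ+H2O and 1.12, 1.73 and 0.835 in IMQ+XYF. Replicate 3 of IMQ+XYF was thus the single library in which Krt16 exceeded Krt17. The ratio of Krt6a to Krt6b was 6.77, 8.95 and 32.3 in VAS+H2O, 4.83, 4.56 and 3.68 in IMQ+H2O and 4.62, 3.51 and 1.90 in IMQ+XYF. It was higher in each VAS+H2O library than in any other, with the reservation that the counts of this pair may be split unevenly between near copies.

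The 4 members together made up 4.24, 4.98 and 10.2% of the summed level per length of 10 epidermal keratins (the members with Krt5, Krt14, Krt15, Krt1, Krt2 and Krt10) in VAS+H2O. The share was 18.9, 21.2 and 16.9% in IMQ+H2O and 8.22, 12.5 and 35.1% in IMQ+XYF. All IMQ+H2O libraries lay above all VAS+H2O libraries. In IMQ+XYF, replicates 1 and 2 lay below every IMQ+H2O library and replicate 3 above all. The means of 19.0 ± 2.15% and 18.6 ± 14.5% (SD, n = 3) thus hid a spread in opposite directions. The share also moves with the keratins it is set against. Krt10 and Krt2 were at 6179 and 7122 CPM in IMQ+XYF replicate 1, against at most 881 and 860 CPM in IMQ+H2O. In CPM, all 4 members of replicate 1 were above IMQ+H2O, and none in replicate 2 was below it. By IMQ, mean Krt10 went from 1823 to 714 CPM and Krt2 from 1793 to 620 CPM, while Krt1 went from 154 to 188 CPM.

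**Figure D5:**
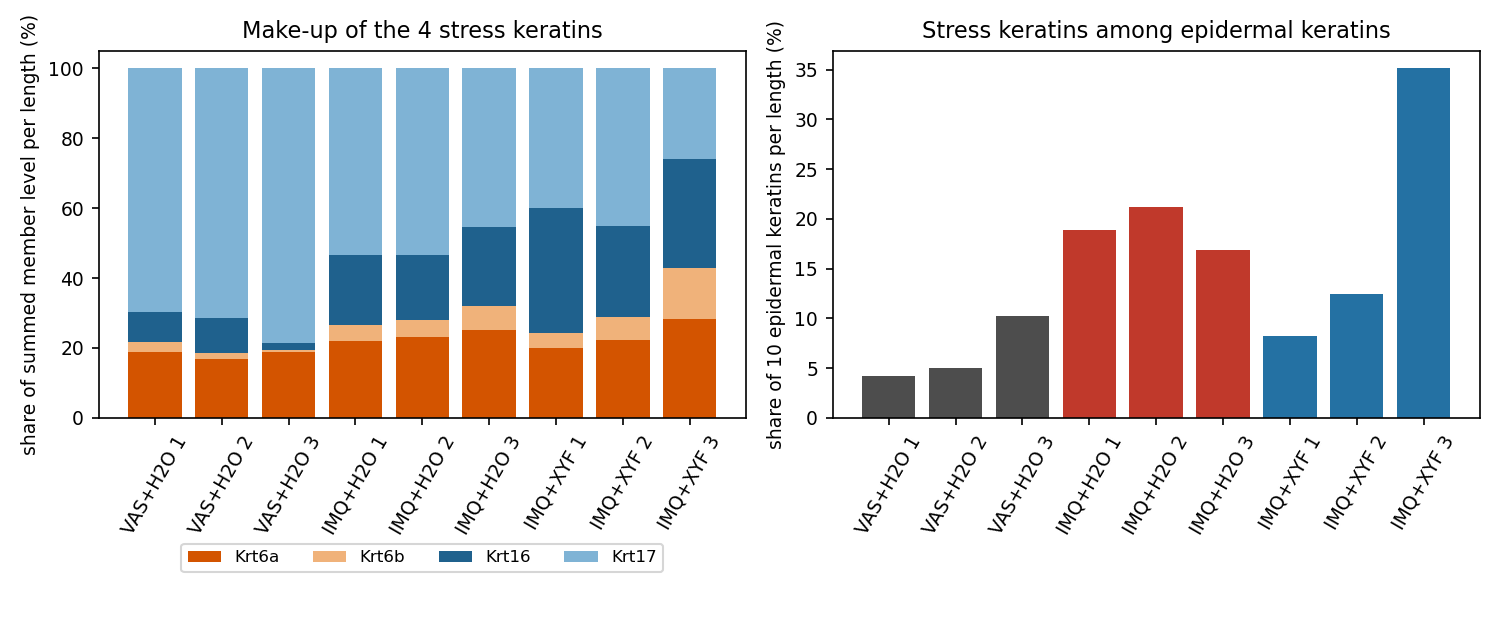
Left, the share of each stress keratin in the summed level per length of the 4 members in each library; right, the share of the 4 members among 10 epidermal keratins (%), with bars coloured by group. Krt17 takes 69.8 to 78.6% of the members in VAS+H2O and 26.0 to 45.2% in IMQ+XYF, and the right panel spans 8.22 to 35.1% in IMQ+XYF.

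Across the 9 libraries, the members with the closest profiles were not those with the most similar sequence. The split of counts between Krt6a and Krt6b is uncertain, which limits this statement. The likeness of a pair of genes is given as the root mean square difference of their centred log2 CPM, so that 0 means parallel profiles. Genes that rise and fall together by unlike amounts also get a high value. These values are a description over libraries that share groups and depth. Krt6b was nearest to Krt16 at 0.52, and Krt6a to Krt17 at 0.66, while the near copies Krt6a and Krt6b differed by 1.07 and the neighbours Krt16 and Krt17 by 1.61. Krt17 was closer still to the basal keratins, at 0.48 from Krt14 and 0.62 from Krt5. The most parallel pair among these 6 genes was Krt5 and Krt14 at 0.27.

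Among 14529 other genes, the nearest profile to Krt6a was that of Gjb2 (0.30), which encodes the gap junction protein connexin 26, followed by Sh2d5, Tnc, Gjb6 and Nrg1. The nearest to Krt16 was Sprr1b (0.23), which encodes a small proline-rich protein of the cornified envelope, followed by Sprr2d, Klk6, Stfa3 and Sprr2h. The nearest to Krt6b were Sprr2g (0.42), Sprr1b, Sprr2d, Sprr2h and Stfa2. For Krt17 they were Klk10 (0.14), a kallikrein-related peptidase, then Kif11, Depdc1a, Fam167a and Cdk1, of which Kif11 and Cdk1 act in mitosis. For the mean profile of the 4 members they were Klk6 (0.35), Nrg1, Slpi, Slc7a11 and Sh2d5.

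Sprr1b had 3.93, 6.86 and 1.15 CPM in VAS+H2O, 22.0, 20.3 and 24.5 CPM in IMQ+H2O and 86.7, 28.2 and 182 CPM in IMQ+XYF. As with Krt16, VAS+H2O replicate 3 was the lowest of its group and IMQ+XYF replicate 3 the highest of all. Sprr1b was picked as the nearest profile to Krt16 in these same libraries, so this likeness is no separate result. Sprr1b belonged to a list of 26 genes of stressed keratinocytes, of which 23 were tested. By IMQ, the median log2 fold change was 0.75. An unadjusted edgeR p under 0.05 was found for 9 with a higher level and 1 with a lower level, and DESeq2 called 7 higher. By edgeR, 4 of the 23 rose and 0 fell, where 0.646% of tested genes were called higher. They were Lcn2 (3.22, edgeR adjusted p 0.00255), S100a8 (5.22, edgeR adjusted p 0.0247), S100a9 (5.20, edgeR adjusted p 0.0247) and Sprr2b, for which every VAS+H2O library stood at 0 counts and no IMQ+H2O library exceeded 0.310 CPM.

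S100a8 and S100a9 are also markers of neutrophils, whose list of 13 tested genes had a summed level of 131 to 165 CPM in VAS+H2O, 409 to 988 in IMQ+H2O and 260 to 726 in IMQ+XYF. On that list, which holds S100a8 and S100a9 themselves, 8 genes rose by IMQ and 7 between IMQ+XYF and VAS+H2O. Of all tested genes, 0.646% and 0.695% were called higher in these comparisons. The summed level of the neutrophil list thus includes S100a8 and S100a9, and the part of neutrophils in their values was not tested. Between IMQ+XYF and IMQ+H2O, 0 of the 23 stressed keratinocyte genes were called by edgeR, with a median of 1.55, while 13 had an unadjusted edgeR p under 0.05 with a higher level and DESeq2 called 5 higher. Between IMQ+XYF and VAS+H2O, 8 of the 23 rose and 0 fell by edgeR, where 0.695% of tested genes were called higher. Among the 8 were Sprr2d (5.57, edgeR adjusted p 0.0208) and Sprr2h (5.26, edgeR adjusted p 0.0475). The median was 2.40, 18 had an unadjusted edgeR p under 0.05 with a higher level, and DESeq2 called 14 higher. The Sprr2 genes are a family of close copies, and their counts are uncertain in the same way as those of Krt6a and Krt6b.

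Among 7 ligands of the epidermal growth factor receptor, a pathway that drives stress keratins in wounded epidermis, Epgn (epigen) was the one that edgeR called. It had 0.388, 0.500 and 0.322 CPM in VAS+H2O, 3.96, 7.81 and 11.4 CPM in IMQ+H2O and 54.0, 11.3 and 57.4 CPM in IMQ+XYF. The groups given IMQ did not overlap VAS+H2O, and as for the members IMQ+XYF replicate 2 stood with IMQ+H2O. Its log2 fold change was 4.29 ± 0.69 by IMQ (edgeR adjusted p 0.0301), 2.40 ± 0.59 between IMQ+XYF and IMQ+H2O (edgeR adjusted p 0.360) and 6.69 ± 0.75 between IMQ+XYF and VAS+H2O (edgeR adjusted p 0.0137). The medians of the list were 0.00083, 0.93 and 0.55. DESeq2 called 1, 1 and 2 of the 7 higher in the 3 comparisons, the second in the last one being Areg (amphiregulin), named here after its values were seen (edgeR log2 fold change 2.29, edgeR adjusted p 0.190, DESeq2 adjusted p 0.0298).

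Of 14 regulators tied to stress keratin expression, 0 were called by edgeR in any comparison. By IMQ, 4 of the 14 were lower without overlap and 0 were higher. The share of all tested genes lower without overlap is not given here, so this count is not set against it. Among the 4 were Jun, Junb and Fos, components of the AP-1 transcription factor, with log2 fold changes of -0.78 (edgeR adjusted p 0.0596), -0.57 (edgeR adjusted p 0.0758) and -0.73 (edgeR adjusted p 0.109). These values were also smaller than the log2 limit of 1. Fosl1, another AP-1 component, was at -0.046, Stat3, which transmits cytokine signals, at 0.36, and Nfe2l2, the oxidative stress factor NRF2, at 0.052, each with overlap. The medians of the list were -0.16, 0.21 and -0.086 in the 3 comparisons. DESeq2 also called 0 of the 14 in each comparison. Between IMQ+XYF and IMQ+H2O, 4 were higher and 1 lower without overlap, where 9.22% of tested genes were higher. Between IMQ+XYF and VAS+H2O, 0 were higher and 1 lower, where 11.7% of tested genes were higher. An unadjusted edgeR p under 0.05 was found for 6 by IMQ, all with a lower level (Jun, Junb, Fos, Klf4, Gli2 and Nfkbiz), for 5 between IMQ+XYF and IMQ+H2O, of which 4 were higher (Jun, Junb, Fos and Nfkbiz) and Gli1 lower, and for Stat3 (higher) and Gli1 (lower) between IMQ+XYF and VAS+H2O.

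A list of other keratins of the same clusters, which leaves out Krt5 and Krt14, had lower estimates on the whole. Of 7 listed, 6 were tested and 0 were called by edgeR in any comparison, with medians of -0.31, -0.29 and -0.52. In each comparison 1 of them had an unadjusted edgeR p under 0.05 with a lower level, and DESeq2 called 1 lower between IMQ+XYF and VAS+H2O. Krt75, a type II keratin of the hair follicle companion layer, had 25.1, 45.5 and 73.9 CPM in VAS+H2O, 23.6, 46.5 and 28.4 CPM in IMQ+H2O and 48.7, 15.3 and 13.4 CPM in IMQ+XYF. Its log2 fold changes were -0.55, -0.34 and -0.90, and the groups overlapped in each comparison. Krt42, which lies 1852 bases from Krt17, was at 0.11, 0.58 and 0.69, also with overlap.

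Other epidermal keratins were counted for contrast. Of the 6 suprabasal keratins, 0 were called by edgeR in any comparison (1, 3 and 1 with an unadjusted p under 0.05, and 0, 1 and 1 called by DESeq2), with medians of -1.09 by IMQ, 1.26 between IMQ+XYF and IMQ+H2O and 0.28 between IMQ+XYF and VAS+H2O.

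Lists of other tissues also moved between the groups, and their part in the member values was not tested. The 11 cartilage genes were all below 0 by IMQ (median -1.93, 3 fell by edgeR and 11 by DESeq2) and all above 0 between IMQ+XYF and IMQ+H2O (median 1.5, 0 called by edgeR, 10 with an unadjusted p under 0.05, 7 called by DESeq2). Their summed level was 1376 to 2436 CPM in VAS+H2O, 375 to 634 in IMQ+H2O and 767 to 2303 in IMQ+XYF. The 14 skeletal muscle genes were all below 0 between IMQ+XYF and IMQ+H2O (median -1.70, 0 called by edgeR, 10 with an unadjusted p under 0.05, 2 called by DESeq2), at 1587 to 3326 summed CPM in IMQ+H2O and 164 to 1166 in IMQ+XYF. The 10 endothelium genes were all above 0 by IMQ (median 0.84, 0 called by edgeR, 6 with an unadjusted p under 0.05, 2 called by DESeq2) and all below 0 between IMQ+XYF and IMQ+H2O (median -0.63, 0 called by either tool, 5 with an unadjusted edgeR p under 0.05). Of the 12 fibroblast and 13 sebaceous gland genes, edgeR called 0 in each comparison, with up to 3 at an unadjusted p under 0.05 and up to 3 called by DESeq2.

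The 14 proliferation genes had medians of 0.35, 0.54 and 0.84, with all 14 above 0 in each comparison. The replication licensing genes Mcm2 (1.12, edgeR adjusted p 0.0475) and Mcm5 (1.31, edgeR adjusted p 0.0326) rose between IMQ+XYF and VAS+H2O, where 0.695% of tested genes were called higher. In the 3 comparisons 2, 4 and 12 of the 14 were higher without overlap, where 15.1%, 9.22% and 11.7% of tested genes were. An unadjusted edgeR p under 0.05 with a higher level was found for 1, 4 and 11, where 10.1%, 6.35% and 9.58% of tested genes had one. DESeq2 called 0, 0 and 6 higher.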

How the data were processed

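The deposited table held raw read counts per Ensembl gene, whole numbers that the authors did not normalize. According to the study's methods and the submitters' processing notes, the authors aligned reads with STAR 2.5 to GRCm38. The counting tool and its use of strand were not given in the sources used here. The labels describe strand-specific TruSeq libraries, whereas the methods name TruSeq RNA Library Prep Kit v2. Totals of 28756305 to 79836881 counts place a gene without counts below 3 counts, or 0.0373 to 0.103 CPM, which covers counting error only.

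Counts were tested with edgeR 4.0.16 (R 4.3.3): filterByExpr, TMM factors, a quasi-likelihood fit over all 9 libraries and Benjamini-Hochberg adjustment over 22430 genes. SEs are the absolute log2 fold change over the square root of F. Log2 CPM used a prior count of 2. Ratios to Krt5 or Krt14 were compared by exact permutation (scipy 1.17.1). Lengths came from GENCODE M21. The study's DESeq2 (here 1.42.0), other normalization, no filter, only the compared groups, a replicate block, 2 score covariates and fits without 1 library were alternatives. The ratios without 1 library were added after the data were seen. Members and the 16 gene lists were chosen with earlier results of these data known. Beyond the members, Krt5 and Krt14, genes were named from the neighbouring keratin and regulator lists, from called genes of other lists (at most 6 by size of change), and as the 5 nearest profiles among genes with a mean of 1 CPM or more and no Gm or Rik symbol. Il36a, Il36b and Il36g were matched through RefSeq synonyms, and Krt85 was not matched. The permutation test was checked on constructed values with a known answer.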

Additional observations from a re-analysis of the deposited data

How the results depend on the processing

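With only the compared groups in the fit, IMQ+H2O against VAS+H2O called 3 members by edgeR (Krt6a 1.28, Krt6b 2.71, Krt16 2.55 on the log2 scale), and IMQ+XYF against VAS+H2O called 0 (Krt6b 5.04, Krt16 4.60). Over all genes these fits called 496 and 33, against 223 and 270 with all 9 libraries. DESeq2 called 2 members by IMQ (Krt6b 2.69, Krt16 2.54), 1 between IMQ+XYF and IMQ+H2O (Krt16 2.07) and 4 between IMQ+XYF and VAS+H2O (newly Krt6a 2.77 and Krt17 1.13). In this last comparison Krt6a was also called with DESeq2 size factors (2.76) and upper quartile factors (2.74) in edgeR. There the baseline epidermis covariate left 1 call (Krt6b 5.04, not called), and the hair follicle covariate 0 (Krt6b 2.16, Krt16 3.95). The filter on low counts changed no call of a member. The cause of these differences was not tested.

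Replicate numbers did not pair the libraries. Deviations of libraries with the same number correlated with r from -0.183 to 0.125 (9 pairs), against -0.161 to 0.277 for different numbers, and 1 of 9 libraries correlated best with its own number. With the replicate block, 0 members were called between IMQ+XYF and VAS+H2O (Krt6b 4.47, Krt16 4.62), and over all genes the calls went from 223 to 86, from 2 to 0 and from 270 to 54 in the 3 comparisons.

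With 1 library left out, the members called ranged from 0 to 1 by IMQ, were 0 between IMQ+XYF and IMQ+H2O, and ranged from 0 to 4 between IMQ+XYF and VAS+H2O. Over all genes the calls ranged from 25 to 455, from 0 to 4 and from 12 to 592 in the 3 comparisons. By IMQ, the log2 fold change ranged from 2.32 to 2.93 for Krt6b and from 2.13 to 3.12 for Krt16. Between IMQ+XYF and VAS+H2O it ranged from 1.83 to 3.21 for Krt6a, 3.29 to 5.56 for Krt6b, 4.01 to 5.19 for Krt16 and 0.82 to 1.47 for Krt17. The difference relative to the partner changed sign for Krt6a (-0.82 to 0.52) and Krt6b (-0.71 to 1.27) between IMQ+XYF and IMQ+H2O, and for Krt17 (-0.085 to 0.48) between IMQ+XYF and VAS+H2O. With 3 libraries a group, the exact test could not go below 0.1.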
